A study of Mus musculus with 8 samples.

Results

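Lgr5-positive basal cell carcinoma cells were set against the Lgr5-negative cells of the same untreated mice. The comparison rests on 4 of the 8 arrays of the series, chosen by treatment and population and paired by the mouse number in the sample title. They are the Lgr5+Lrig1+ population of untreated mouse 1 and of untreated mouse 2, and the population spelled Lrg5-Lrig1+ in the labels from the same 2 mice. All mice had the genotype K14-CreER/Ptch1cKO, in which the keratin 14 promoter drives an inducible Cre recombinase that deletes Ptch1 in keratinocytes. Both populations thus came from tissue with the deletion and both were selected for surface Lrig1, and no skin without the deletion is among the arrays. Back skin was incubated with thermolysin, the epidermis was lifted off the dermis, and living single cells were gated by scatter, doublet discrimination and Hoechst exclusion, stained for Lrig1 and split by an Lgr5 reporter that makes green fluorescent protein. The labels name no marker that would exclude leukocytes. The sources used here do not give the age or sex of the mice or the time since the deletion. The other 4 arrays hold both populations of 2 mice given vismodegib, an inhibitor of Smoothened, and its dose and duration are not stated in the labels. These arrays share the estimate of the spread and are compared at the end.

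Basal cell carcinoma is driven by the Hedgehog pathway. Ptch1 holds Smoothened in check, and without it the GLI transcription factors switch on their target genes in keratinocytes, which take on features of the embryonic hair follicle. Lgr5 is a receptor for R-spondins, secreted proteins that strengthen Wnt signals, and marks stem cells of the lower hair follicle. Lrig1 restrains growth factor receptors and marks progenitors of the upper follicle. The title of the series ties a slow-cycling Lgr5 population to relapse, so the comparison asks how cells with the reporter differed from their neighbours before any drug was given.

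All values below are log2 signals that the authors obtained by RMA, and in each pair of values the first is mouse 1 and the second mouse 2. A difference is Lgr5-positive minus Lgr5-negative on the log2 scale, given with its standard error from limma over 2 arrays per group. A gene passed when its two-sided p-value, adjusted by Benjamini and Hochberg over 14403 genes, was under 0.05. The medians of the 4 arrays lay between 6.13 and 6.18. A signal under 4.85, the 25th percentile of all values, is called dim here. Keratin 5 (Krt5), a keratin of basal keratinocytes, stood at 12.87 and 12.88 in Lgr5-positive cells, against 12.76 and 12.82 in Lgr5-negative cells (0.09 ± 0.11, not passed). The 13 genes of a keratinocyte list averaged 11.4 in both Lgr5-positive arrays, against 11.3 in both Lgr5-negative arrays, so every array carried the labelled cell type. On the first principal component, with 48.2% of the variance over all 8 arrays, the Lgr5-positive arrays lay at 48.9 and 45.4, against −8.52 and −12.7 for the Lgr5-negative arrays. In vismodegib mice the Lgr5-positive arrays lay at −13.1 and −7.13 and the Lgr5-negative arrays at −31.1 and −21.7. The component thus set the untreated Lgr5-positive arrays apart from all others and is not an axis of the populations alone.

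Lgr5 itself stood at 10.98 and 11.001 in Lgr5-positive cells, against 8.52 and 8.40 in Lgr5-negative cells. The sort set this difference, so it is given as a description. The Lgr5-negative cells lay far above the dim range for Lgr5 and were thus not free of its signal. Lrig1, selected in both populations, had 11.60 and 11.45 in Lgr5-positive cells, against 10.84 and 10.63 in Lgr5-negative cells (0.79 ± 0.17, adjusted p = 0.0192). Ptch1, itself a target of the pathway, had 11.91 and 11.38 in Lgr5-positive cells, against 10.56 and 10.60 in Lgr5-negative cells (1.07 ± 0.22, adjusted p = 0.0170). Since the sources used here do not say which part of Ptch1 was deleted, its probe sets check nothing about the deletion. Lrig1 and Ptch1 did not pass without either Lgr5-negative array or the Lgr5-positive array of mouse 1.

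The populations differed in many genes, and the decreases were more numerous than the increases. Of 14403 genes, 895 were higher (6.21%) and 1571 lower (10.9%) in Lgr5-positive cells, 2466 in all (17.1%). Differences of at least 2-fold were found in 341 higher (2.37%) and 619 lower genes (4.3%), those of at least 4-fold in 32 higher and 129 lower genes, and those of at least 8-fold in 0 higher and 26 lower genes. Each of the 2466 had the same sign in both mice, as had 74.3% of all tested genes, and its groups did not overlap, as was true of 64.6% of all tested genes. The median of all differences was 0.02. Across genes, which are not independent replicates, the difference in mouse 1 and that in mouse 2 had a Pearson r of 0.791. These counts fell most when an Lgr5-negative array was left out. Without that of mouse 2 the fit called 582 genes, 216 higher and 366 lower, and without that of mouse 1 it called 1034. In all 8 fits that left out an array, 531 of the 2466 genes passed. Below, counts of list members that were higher or lower are to be read against 6.21% and 10.9% of all genes, and calls that ended when an array was left out are named. "Without either array" means that each was left out in turn, and for small counts the fits that moved them most are given. A fit without 1 array leaves 1 in its group, which then adds nothing to the estimate of the spread. A call can thus end whatever the values of the array left out.

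**Figure D1:**
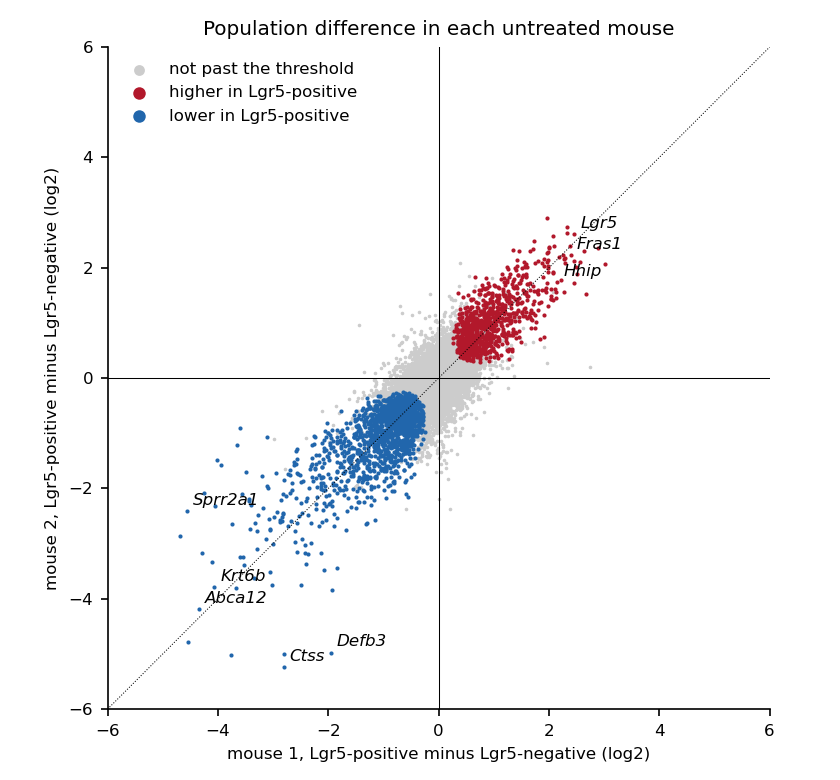
Each point is 1 of 14403 genes, with the Lgr5-positive minus Lgr5-negative log2 difference in untreated mouse 1 on the x axis and in untreated mouse 2 on the y axis; coloured points passed the threshold (895 higher, 1571 lower). The coloured genes have equal signs in both mice, and the lower ones reach farther from 0 than the higher ones.

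Secreted and matrix proteins, membrane proteins and regulators were among the 15 largest increases. Follistatin-like 1 (Fstl1), a secreted glycoprotein that binds BMPs, stood at 10.08 and 9.20 in Lgr5-positive cells, against 7.19 and 6.85 in Lgr5-negative cells. The difference was 2.62 ± 0.29, or 6.16-fold (adjusted p = 0.00202). Fras1, a protein of the epidermal basement membrane, had 10.27 and 9.95 in Lgr5-positive cells, against 7.88 and 7.72 in Lgr5-negative cells (2.31 ± 0.14, adjusted p = 0.000364). The groups lay far apart in both genes, which the rule that named them took for groups that do not overlap. The fibrillar collagens Col2a1 (2.48 ± 0.39) and Col5a2 (2.25 ± 0.23), the matrix protein Abi3bp (2.54 ± 0.35), the secreted protein Mia (2.43 ± 0.21) and the protease Pappa (2.33 ± 0.34), which cleaves binding proteins of insulin-like growth factors, were higher as well. So were the iron carrier transferrin (Trf, 2.25 ± 0.18) and claudin 10 (Cldn10, 2.39 ± 0.17), which forms paracellular ion channels.

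Regulators among the 15 largest increases included Lhx2, a LIM homeodomain factor of hair follicle stem cells, Spry4, an inhibitor of ERK signalling that ERK itself induces, and the zinc finger gene Bnc2. Lhx2 stood at 10.67 and 10.75 in Lgr5-positive cells, against 8.58 and 8.37 in Lgr5-negative cells (2.24 ± 0.18, adjusted p = 0.000752). Spry4 had 9.50 and 9.16 in Lgr5-positive cells, against 6.94 and 7.05 in Lgr5-negative cells (2.33 ± 0.15, adjusted p = 0.000485), and Bnc2 differed by 2.29 ± 0.19. The rule that named these 3 genes took only groups that do not overlap, so their separation is a description. Copine 7 (Cpne7, 2.53 ± 0.21), a calcium-dependent membrane-binding protein, and the cytochrome P450 gene Cyp2d22 (2.47 ± 0.27) completed the 15 with Lgr5. The sort set the difference of Lgr5, so its place among the 15 is a description. With the mean of probe sets the difference was 1.58 for Cpne7 and 1.31 for Spry4. All 15 passed in each of the 8 fits that left out an array, their fold differences ran from 4.73 to 6.16, and they lay on 12 chromosomes.

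The 15 largest decreases held genes of many kinds, some of them known from the skin barrier, from stressed epidermis or from antigen-presenting cells. Serpinb2, a protease inhibitor of stressed keratinocytes and myeloid cells, stood at 4.92 and 4.75 in Lgr5-positive cells, against 9.46 and 9.54 in Lgr5-negative cells. The difference was −4.67 ± 0.46, or 25.4-fold (adjusted p = 0.00149). Abca12, which loads lipid into the lamellar granules of the skin barrier, had 4.54 and 4.79 in Lgr5-positive cells, against 8.88 and 8.98 in Lgr5-negative cells (−4.27 ± 0.17, adjusted p = 0.000214). Both genes lay at or in the dim range in Lgr5-positive cells and far above it in Lgr5-negative cells. Of the 15 largest decreases, 7 had at least 1 Lgr5-positive value in the dim range, so the size of these differences rests on signals close to the background. The carbonic anhydrase Car2 (−3.73 ± 0.24), the magnesium transporter Nipal1 (−4.39 ± 0.47), the thioesterase Them5 (−3.72 ± 0.45), the secreted protein Lgi2 (−3.49 ± 0.30) and the membrane protease Tmprss4 (−3.46 ± 0.21) were lower. The mean of the probe sets of Them5 differed by −2.09. Casp14, a protease of cornifying keratinocytes, had 4.70 and 6.74 in Lgr5-positive cells, against 9.39 and 9.60 in Lgr5-negative cells (−3.78 ± 0.58), with the Lgr5-positive arrays wide apart. Sprr2a1, an envelope precursor with near-identical copies whose signals its probe set may share, had 7.11 and 9.72 in Lgr5-positive cells, against 11.68 and 12.14 in Lgr5-negative cells (−3.49 ± 0.89), also wide apart in Lgr5-positive cells. Ctss, H2-Aa, Krt6b, Sprr1b, Defb3 and Il1f9, described below, complete the 15. Of these, 9 passed in each of the 8 fits that left out an array, and the fold differences ran from 10.7 to 25.4. Casp14 did not pass without the Lgr5-negative array of mouse 2, and Sprr2a1 without either Lgr5-negative array or the Lgr5-positive array of mouse 1.

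**Figure D2:**
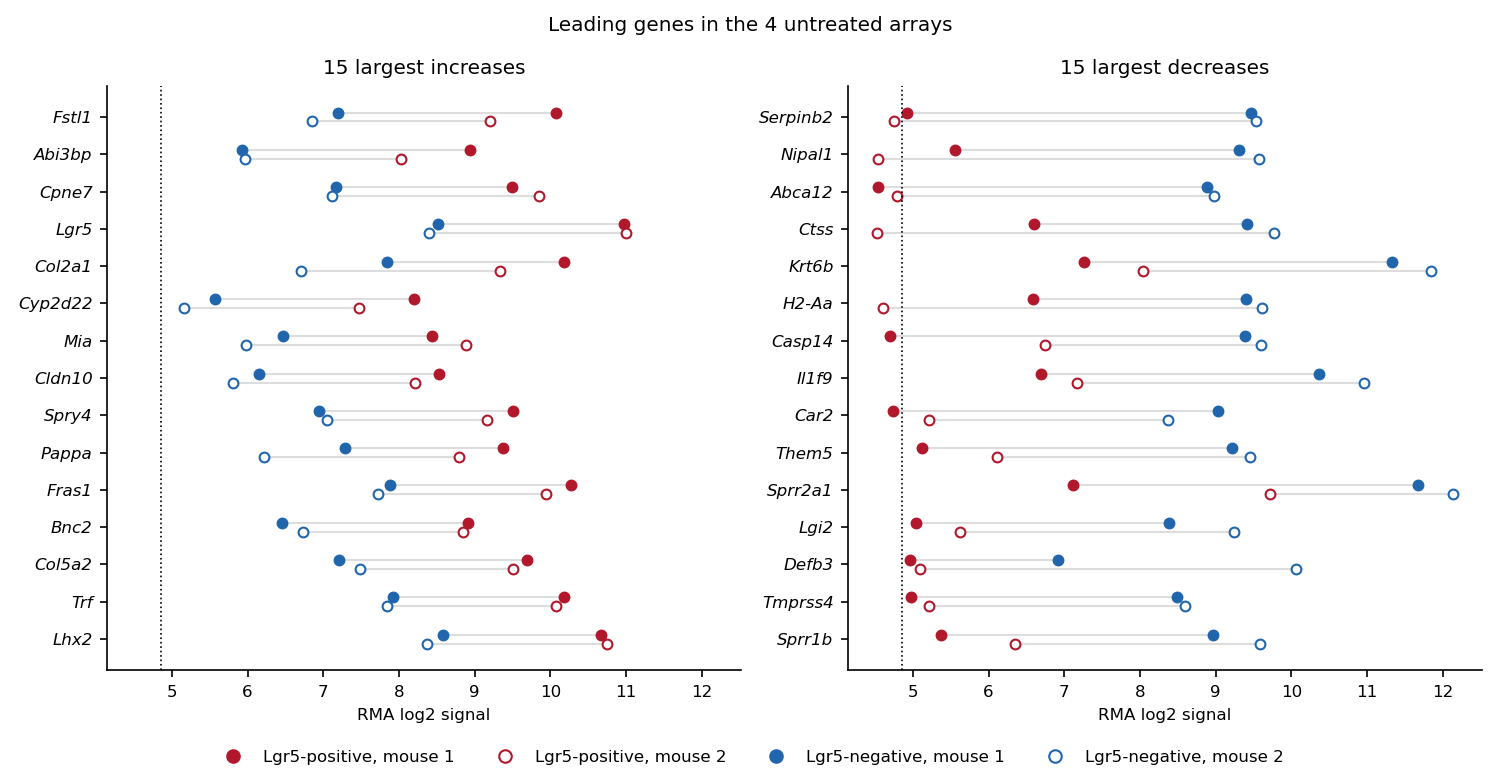
RMA log2 signal (x axis) in the 4 untreated arrays of the 15 genes with the largest increase and the 15 with the largest decrease; red points are Lgr5-positive and blue points Lgr5-negative arrays, filled for mouse 1 and open for mouse 2, and the dotted line marks 4.85. The Lgr5-negative values of the increases lie between 5.17 and 8.58, above the line, whereas 7 of the decreases have a red point below it.

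Many Hedgehog genes were higher in Lgr5-positive cells. Of 18 members tested, 10 were higher, against 6.21% of all genes, and 1 was lower, with a median difference of 0.75 against 0.02 for all genes. Gli1, a final effector and target of the pathway, had 9.73 and 10.13 in Lgr5-positive cells, against 9.05 and 8.75 in Lgr5-negative cells (1.03 ± 0.17, adjusted p = 0.00836). Gli2 (0.74 ± 0.13) and Gli3 (0.94 ± 0.12), which carry the signal to DNA, were higher by similar steps. The ligand trap Hhip, a target that dampens the pathway, had 9.86 and 8.84 in Lgr5-positive cells, against 7.71 and 7.10 in Lgr5-negative cells (1.95 ± 0.36). At the cell surface the co-receptor Boc was higher (1.23 ± 0.22), and among the target genes so were the survival factor Bcl2 (1.21 ± 0.22) and the growth regulator Mycn (1.17 ± 0.14). Sostdc1, a secreted antagonist of BMP and Wnt signals, was the 1 lower member at 8.88 and 9.79 in Lgr5-positive cells, against 11.14 and 10.84 in Lgr5-negative cells (−1.66 ± 0.31, adjusted p = 0.0126). The ligand gene Shh stood at 6.45 and 6.50 in Lgr5-positive cells, against 6.27 and 6.21 in Lgr5-negative cells (0.23 ± 0.11, not passed). Without the Lgr5-negative array of mouse 1 the counts were 8 higher and 0 lower, and without that of mouse 2 they were 2 and 0. Gli1, Gli2, Hhip, Boc and Bcl2 did not pass without the Lgr5-negative array of mouse 2, and Sostdc1 without either Lgr5-negative array.

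So were many genes of the follicle stem cell and of the embryonic follicle. Of 22 embryonic follicle and placode genes 12 were higher and 1 lower (median 0.77), of 22 bulge and outer root sheath genes 11 and 1 (median 0.81), and of 10 secondary hair germ genes 6 and 1 (median 0.85). All 3 lists hold Lgr5, whose difference the sort set, and they share other higher members, so their counts are not independent. Lhx2, Sox9 and Foxc1 were counted in both the embryonic and the bulge list, and Cdh3 in both the embryonic and the germ list. Gli1 and Ptch1 of the germ list were counted among the Hedgehog genes too. Krt15, the keratin of bulge stem cells and basal epidermis, had 11.12 and 11.34 in Lgr5-positive cells, against 9.68 and 9.47 in Lgr5-negative cells (1.65 ± 0.17, adjusted p = 0.00163). Tbx1, a T-box factor tied to the renewal of hair follicle stem cells, had 9.06 and 9.73 in Lgr5-positive cells, against 7.34 and 7.25 in Lgr5-negative cells (2.10 ± 0.29, adjusted p = 0.00384). Foxc1, a forkhead factor that keeps follicle stem cells quiescent, had 9.88 and 9.91 in Lgr5-positive cells, against 8.71 and 8.33 in Lgr5-negative cells (1.38 ± 0.14). As in every gene that passed, the groups of these 3 did not overlap. Sox9, which sets outer root sheath fate, was higher by a smaller step (0.80 ± 0.13). Nfatc1, a factor of quiescent bulge cells, stood at 10.69 and 10.84 in Lgr5-positive cells, against 10.80 and 10.49 in Lgr5-negative cells (0.12 ± 0.18, not passed). In the opposite direction, the matrix protein tenascin C (Tnc), found in the bulge niche and in wounds, had 6.39 and 6.71 in Lgr5-positive cells, against 8.93 and 9.22 in Lgr5-negative cells (−2.52 ± 0.17, adjusted p = 0.000485). The mean of the probe sets of Tnc differed by −1.55. The antioxidant enzyme Gpx2 was lower too (−1.60 ± 0.21). Without the Lgr5-negative array of mouse 2 the higher members of the 3 lists numbered 7, 4 and 1, and without that of mouse 1 they numbered 8, 7 and 3. The germ list also had 3 without the Lgr5-positive array of mouse 1 and, without either Lgr5-negative array, 0 lower. Sox9 did not pass without the Lgr5-negative array of mouse 2.

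Of 18 genes of the growing hair itself 3 were higher and 2 lower, with a median of 0.21. The higher Lef1 and Hoxc13 were counted in the embryonic list too. Lef1, the DNA-binding partner of beta-catenin, had 6.75 and 7.25 in Lgr5-positive cells, against 5.33 and 5.61 in Lgr5-negative cells (1.53 ± 0.19, adjusted p = 0.00267), and Hoxc13, a homeobox gene that controls hair keratins, had 8.12 and 8.42 in Lgr5-positive cells, against 6.79 and 6.72 in Lgr5-negative cells (1.51 ± 0.13). Ovol1, a repressor of progenitor genes in differentiating cells, had 7.95 and 8.17 in Lgr5-positive cells, against 10.35 and 10.40 in Lgr5-negative cells (−2.31 ± 0.25, adjusted p = 0.00189). The groups of all 3 did not overlap, as in every gene that passed. Without any 1 of the 4 untreated arrays or either vismodegib Lgr5-positive array the list had 1 lower member.

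**Figure D3:**
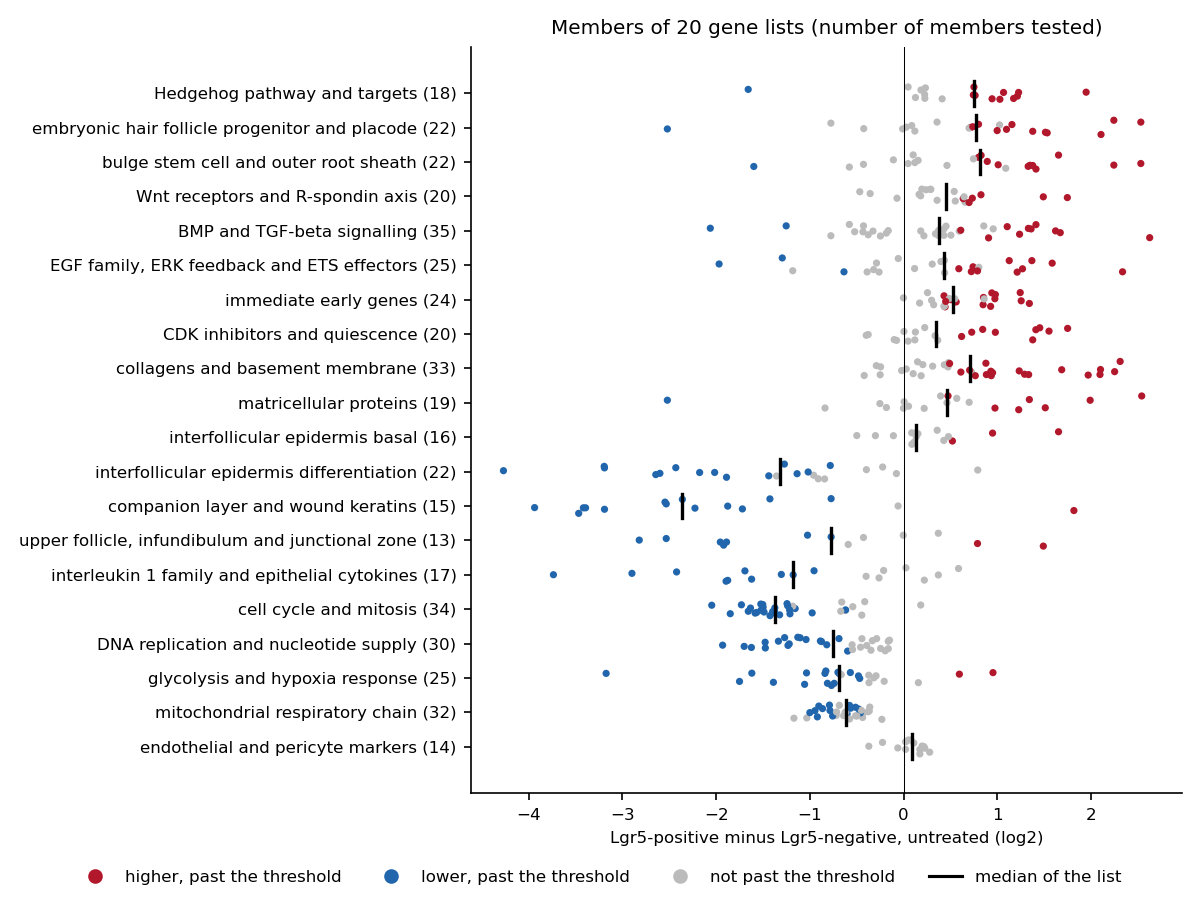
Log2 difference, Lgr5-positive minus Lgr5-negative cells of untreated mice (x axis), of the tested members of 20 gene lists, with their number after each name; red members passed as higher, blue ones as lower and grey ones did not pass, and the black bar is the list's median. The bulge and embryonic follicle lists have medians of 0.81 and 0.77, the mitosis list −1.38 and the companion layer and wound list −2.36.

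Keratins and envelope proteins of wounded epidermis were lower in Lgr5-positive cells. Of 15 companion layer and wound genes 13 were lower, against 10.9% of all genes, with a median of −2.36. Krt6b, a keratin of the companion layer and of wound edges, had 7.26 and 8.05 in Lgr5-positive cells, against 11.33 and 11.84 in Lgr5-negative cells (−3.94 ± 0.65, adjusted p = 0.00785). The wound keratin Krt16 stood at 8.997 and 8.86 in Lgr5-positive cells, against 11.11 and 11.47 in Lgr5-negative cells (−2.36 ± 0.17, adjusted p = 0.000544). Both keratins stayed well above the dim range in Lgr5-positive cells. The envelope precursor Sprr1b had 5.37 and 6.35 in Lgr5-positive cells, against 8.96 and 9.59 in Lgr5-negative cells (−3.41 ± 0.37), and its relative Sprr2d had 7.23 and 8.06 in Lgr5-positive cells, against 10.77 and 11.30 in Lgr5-negative cells (−3.39 ± 0.41). The antimicrobial peptide gene Defb3 had 4.96 and 5.09 in Lgr5-positive cells, against 6.92 and 10.06 in Lgr5-negative cells (−3.46 ± 0.83), so its Lgr5-negative arrays lay far apart. The 1 higher member was the companion layer keratin Krt75, at 7.98 and 7.75 in Lgr5-positive cells, against 6.37 and 5.72 in Lgr5-negative cells (1.82 ± 0.25, adjusted p = 0.00390). Krt6b did not pass without the Lgr5-negative array of mouse 2, and Defb3 without either Lgr5-positive array or either vismodegib Lgr5-positive array. The list had 8 lower members without the Lgr5-negative array of mouse 1 and 7 without that of mouse 2.

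Promoter windows of Sprr1b (chr3:92438750-92439029, minus strand) and Sprr2d (chr3:92338890-92339169, plus strand) are shown because these neighbouring envelope genes were lower together and the Fos and Jun dimer AP-1 is a known regulator of the family. Here and below a window runs from 250 bases before the gene start to 30 bases after it, read from RefSeq in build GRCm38.p6, 5′ to 3′ along the gene. Capitals mark matches to TGANTCA, a loose pattern for AP-1 sites that allows any base at N, searched on both strands. The match is TGAATCA in Sprr1b and TGAGTCA in Sprr2d.
Sprr1b: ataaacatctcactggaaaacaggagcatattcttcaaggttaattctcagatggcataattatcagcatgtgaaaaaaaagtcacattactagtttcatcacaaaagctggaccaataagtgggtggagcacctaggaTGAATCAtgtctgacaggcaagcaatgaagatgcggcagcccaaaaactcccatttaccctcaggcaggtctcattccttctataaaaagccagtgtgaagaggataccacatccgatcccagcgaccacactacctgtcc
Sprr2d: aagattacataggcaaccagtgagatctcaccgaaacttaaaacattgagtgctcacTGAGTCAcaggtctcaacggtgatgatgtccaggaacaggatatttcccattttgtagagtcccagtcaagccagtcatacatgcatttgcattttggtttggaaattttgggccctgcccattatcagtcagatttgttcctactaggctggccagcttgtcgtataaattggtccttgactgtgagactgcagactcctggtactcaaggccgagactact
The motif was found in 3 of 11 windows of tested genes of the wound list (27.3%). It was found in 5.55% of 11488 windows of all tested genes and in 7.57% of 27018 windows of all genes. These 3 were Sprr1a, Sprr1b and Sprr2d, related genes on chromosome 3, and no other window of the list had a match. The GLI motif GACCNCCCA, searched in the same way, was found in 0 of 14 Hedgehog windows, against 1.11% for tested genes and 0.922% of all windows. A match is a run of letters, not evidence that a factor binds there.

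Many genes of the suprabasal epidermis were lower. Of 22 interfollicular differentiation genes 14 were lower and 0 higher, with a median of −1.31. Keratin 1 (Krt1), the first keratin of suprabasal cells, had 8.61 and 9.87 in Lgr5-positive cells, against 12.35 and 12.51 in Lgr5-negative cells (−3.19 ± 0.37, adjusted p = 0.00231), and its partner keratin 10 (Krt10) had 9.61 and 9.91 in Lgr5-positive cells, against 11.97 and 11.90 in Lgr5-negative cells (−2.18 ± 0.13, adjusted p = 0.000364). Transglutaminase 3 (Tgm3), which cross-links the cornified envelope, had 6.64 and 6.62 in Lgr5-positive cells, against 9.94 and 9.71 in Lgr5-negative cells (−3.19 ± 0.15). The groups of these 3 genes did not overlap, as in every gene that passed, and Krt1 also differed between the Lgr5-positive arrays. Grhl3, a transcription factor of barrier formation (−2.64 ± 0.25), Elovl4, which lengthens the fatty acids of barrier lipids (−2.60 ± 0.18), and the desmosomal cadherin Dsc1 (−2.02 ± 0.23) were lower. Loricrin (Lor), the main envelope protein, stood at 5.17 and 6.10 in Lgr5-positive cells, against 6.04 and 6.92 in Lgr5-negative cells (−0.84 ± 0.46, not passed). The basal epidermal list held 3 higher and 0 lower of 16, with a median of 0.13. Its keratin Krt14 stood at 12.23 and 12.42 in Lgr5-positive cells, against 12.58 and 12.67 in Lgr5-negative cells (−0.30 ± 0.12, not passed). The differentiation list had 9 lower members without the Lgr5-negative array of mouse 1 and 1 higher member without the Lgr5-positive array of mouse 1. The basal list had 1 higher member without the Lgr5-negative array of mouse 2, and 1 lower member without the Lgr5-positive array of mouse 2.

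The genes from S100a1 to S100a10 in RefSeq order on mouse chromosome 3 form the epidermal differentiation complex. Of its 33 tested genes 0 were higher and 12 lower, with a median of −0.75. Along with Sprr1b and Sprr2d they included Sprr1a (−2.53 ± 0.43) and the calcium-binding alarmin S100a9, at 7.98 and 9.51 in Lgr5-positive cells, against 10.68 and 11.27 in Lgr5-negative cells (−2.23 ± 0.51, adjusted p = 0.0260). In S100a9 the Lgr5-positive array of mouse 1 lay far below that of mouse 2. Sprr1a did not pass without either Lgr5-negative array, and S100a9 without either Lgr5-negative array or the Lgr5-positive array of mouse 1.

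Upper follicle genes were split. Of 13, 7 were lower and 2 higher, with a median of −0.77. The higher ones were Lrig1 and Lgr6, a receptor that marks stem cells of the follicle isthmus, at 11.16 and 11.49 in Lgr5-positive cells, against 9.92 and 9.75 in Lgr5-negative cells (1.49 ± 0.19, adjusted p = 0.00295). The lower ones included the water channel Aqp3, at 8.50 and 9.77 in Lgr5-positive cells, against 11.94 and 11.96 in Lgr5-negative cells (−2.82 ± 0.34, adjusted p = 0.00267), the protease Klk10 (−1.95 ± 0.31) and the defensin Defb6 (−1.92 ± 0.30). Krt79, a keratin of the infundibulum and sebaceous duct, was lower by a smaller step (−0.77 ± 0.13). Without either Lgr5-negative array 1 member was higher and 3 were lower, and 1 was higher without the Lgr5-positive array of mouse 1. Of 12 sebaceous gland genes Krt79 was the 1 that passed, and the median was −0.08. Krt79 did not pass without either Lgr5-negative array. The sebaceous list had 3 lower members without the Lgr5-positive array of mouse 2 and 2 without any 1 of the 4 vismodegib arrays.

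Some Wnt receptors were higher, and some Wnt ligands were lower. Of 20 receptor and R-spondin axis genes 6 were higher and 0 lower (median 0.45), and of 15 ligands 1 was higher and 4 lower (median 0.03). The receptor Fzd2 had 10.97 and 11.35 in Lgr5-positive cells, against 9.47 and 9.36 in Lgr5-negative cells (1.75 ± 0.28, adjusted p = 0.00694). Lgr4, another R-spondin receptor, had 10.85 and 10.57 in Lgr5-positive cells, against 10.07 and 9.96 in Lgr5-negative cells (0.70 ± 0.18). With Lgr6, both relatives of Lgr5 were thus higher in the cells sorted for it. Among the ligands Wnt10a, an early signal of the hair placode, had 6.55 and 7.25 in Lgr5-positive cells, against 8.40 and 8.19 in Lgr5-negative cells (−1.39 ± 0.22, adjusted p = 0.00659), and Wnt5a, which signals mostly without beta-catenin, differed by −1.19 ± 0.22. Of 14 inhibitors 3 were higher, Dkk3 (1.33 ± 0.22), Wif1 (1.01 ± 0.20) and Sfrp1 (0.89 ± 0.19), all of them secreted, and 1, Sostdc1, was lower (median 0.04). Without the Lgr5-negative array of mouse 2 there were 1 receptor and 0 inhibitors higher, and without that of mouse 1 2 and 1. Without either of these arrays 0 ligands were higher and 1 was lower, and 0 ligands were higher without either Lgr5-positive array. Without the Lgr5-positive array of mouse 1, 2 ligands were lower and 1 inhibitor was higher. Fzd2 and Dkk3 did not pass without the Lgr5-negative array of mouse 2, Lgr4, Wif1 and Sfrp1 without either Lgr5-negative array or the Lgr5-positive array of mouse 1, and Wnt5a without either Lgr5-negative array.

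Wnt targets and Notch genes stood on both sides. Of 21 Wnt targets and LEF/TCF factors 7 were higher and 1 lower, with a median of 0.19. The higher ones included Lgr5, whose difference the sort set, Lef1, given above, and the factor Tcf7l1 (1.35 ± 0.22). The receptor Tnfrsf19, a Wnt target of hair germ cells, was lower at 6.43 and 6.66 in Lgr5-positive cells, against 7.80 and 8.08 in Lgr5-negative cells (−1.40 ± 0.15, adjusted p = 0.00178). Axin2, a feedback target that is widely read as a gauge of the signal, stood at 7.43 and 7.60 in Lgr5-positive cells, against 7.50 and 7.39 in Lgr5-negative cells (0.07 ± 0.19, not passed). Of 20 Notch genes 3 were higher and 3 lower (median 0.10). The receptor Notch3 had 7.12 and 6.57 in Lgr5-positive cells, against 8.16 and 8.23 in Lgr5-negative cells (−1.35 ± 0.19, adjusted p = 0.00393), while Lfng, a sugar transferase that tunes the receptors, was higher (1.21 ± 0.31). Without the Lgr5-negative array of mouse 1 the higher members numbered 3 Wnt targets and 0 Notch genes, and without that of mouse 2 2 and 0. In both of these fits 1 Notch gene was lower, and without the Lgr5-positive array of mouse 2 1 was higher. Tcf7l1 did not pass without the Lgr5-negative array of mouse 2, and Lfng without either Lgr5-negative array or the Lgr5-positive array of mouse 2.

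Some feedback inhibitors of growth factor signalling were higher, and some ligands of the EGF family were lower. Of 25 EGF family, ERK feedback and ETS genes 10 were higher and 3 lower, with a median of 0.43. Beside Spry4, the ERK inhibitors Spry1 (1.58 ± 0.23) and Spry2 (1.21 ± 0.15) were higher. The ETS factor Etv4, induced by ERK, had 10.24 and 9.77 in Lgr5-positive cells, against 8.57 and 8.70 in Lgr5-negative cells (1.37 ± 0.19, adjusted p = 0.00467). The ligand gene Ereg had 3.94 and 3.92 in Lgr5-positive cells, against 5.84 and 5.96 in Lgr5-negative cells (−1.97 ± 0.11, adjusted p = 0.000364) and was in the dim range in Lgr5-positive cells. Nrg1, a ligand of the related receptors Erbb3 and Erbb4, was lower as well (−1.29 ± 0.14). Of 18 FGF and PDGF genes 5 were higher and 1 lower (median 0.14). The receptor Fgfr1 had 12.22 and 12.24 in Lgr5-positive cells, against 11.34 and 11.05 in Lgr5-negative cells (1.04 ± 0.16), and Fgfbp1, a secreted carrier that releases FGFs from the matrix, had 7.64 and 8.50 in Lgr5-positive cells, against 10.29 and 10.53 in Lgr5-negative cells (−2.34 ± 0.26, adjusted p = 0.00209). Without either Lgr5-negative array 4 genes of the first list and 2 of the second were higher, and without the Lgr5-positive array of mouse 1 5 of the first. The second also had 2 without the Lgr5-positive array of mouse 2. Spry1 and Fgfr1 did not pass without the Lgr5-negative array of mouse 2.

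Many immediate early genes, which cells switch on soon after a stimulus or handling, were higher. Of 24, 14 were higher and 0 lower, with a median of 0.52. The orphan receptor gene Nr4a3 had 10.42 and 10.46 in Lgr5-positive cells, against 9.23 and 9.17 in Lgr5-negative cells (1.24 ± 0.16, adjusted p = 0.00288), and the antiproliferative gene Btg2 had 11.64 and 11.71 in Lgr5-positive cells, against 10.72 and 10.67 in Lgr5-negative cells (0.98 ± 0.14). Jun, a subunit of AP-1, had 11.37 and 11.50 in Lgr5-positive cells, against 10.64 and 10.53 in Lgr5-negative cells (0.85 ± 0.12). Its partner Fos stood at 12.62 and 12.70 in Lgr5-positive cells, against 12.37 and 12.32 in Lgr5-negative cells (0.32 ± 0.11, not passed). The steps were small beside those of the differentiation genes, and the count was not firm. It was 2 without the Lgr5-negative array of mouse 2, 5 without that of mouse 1 and 8 without the Lgr5-positive array of mouse 2 and was also lower without either vismodegib Lgr5-positive array. Jun did not pass without the Lgr5-negative array of mouse 2.

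Of 35 BMP and TGF-beta genes 10 were higher and 2 lower, with a median of 0.38. Beside Fstl1, the BMP inhibitor gremlin 1 (Grem1) was higher, at 8.03 and 7.89 in Lgr5-positive cells, against 6.77 and 5.91 in Lgr5-negative cells (1.62 ± 0.29, adjusted p = 0.0106). Ltbp2, a matrix protein of the latent TGF-beta binding family, had 7.19 and 7.45 in Lgr5-positive cells, against 5.68 and 5.61 in Lgr5-negative cells (1.67 ± 0.21), and the ligand gene Tgfb3 differed by 1.33 ± 0.21. Inhba, the activin subunit that wounds induce, had 6.84 and 6.60 in Lgr5-positive cells, against 8.84 and 8.73 in Lgr5-negative cells (−2.06 ± 0.29, adjusted p = 0.00438). The mean of its probe sets differed by −1.03. The other lower member was the ligand gene Bmp2 (−1.25 ± 0.29), so ligands of the family stood on both sides. Of 47 semaphorin, ephrin and axon guidance genes 12 were higher and 3 lower (median 0.21). The Slit receptor Robo1 had 7.38 and 6.74 in Lgr5-positive cells, against 10.40 and 10.49 in Lgr5-negative cells (−3.38 ± 0.21, adjusted p = 0.000388). The semaphorin Sema4d was lower (−1.77 ± 0.21), and the semaphorin and VEGF receptor Nrp2 was higher (1.36 ± 0.17). Without the Lgr5-negative array of mouse 2 there were 3 BMP and 4 guidance genes higher, and without that of mouse 1 7 guidance genes. Lower BMP genes numbered 1 without either Lgr5-negative array or the Lgr5-positive array of mouse 1, and 4 with the mouse as a block. Bmp2 did not pass without either Lgr5-negative array or the Lgr5-positive array of mouse 1, and Grem1 and Tgfb3 without the Lgr5-negative array of mouse 2.

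Most tested genes of mitosis and many of replication were lower in Lgr5-positive cells. Of 34 mitosis genes 26 were lower and 0 higher, with a median of −1.38, and 33 of the 34 differences lay below 0. The proliferation marker Mki67 had 8.03 and 8.64 in Lgr5-positive cells, against 9.75 and 9.97 in Lgr5-negative cells (−1.52 ± 0.21, adjusted p = 0.00406). Cdca8, a subunit of the chromosomal passenger complex that corrects spindle attachments, had 7.15 and 8.22 in Lgr5-positive cells, against 9.45 and 10.01 in Lgr5-negative cells (−2.05 ± 0.35). The kinase Melk (−1.85 ± 0.20), the spindle midzone protein Prc1 (−1.66 ± 0.18), the spindle kinase Aurkb (−1.58 ± 0.23) and cyclin B2 (Ccnb2, −1.50 ± 0.21), which drives entry into mitosis, were lower. The genes named here lay above the dim range in every array. In sorted cells measured in bulk, fewer cells in a state and less RNA of that state per cell cannot be told apart. Of 30 replication genes 17 were lower and 0 higher, all 30 differences lay below 0, and the median was −0.75. The helicase subunit Mcm5 had 9.15 and 9.36 in Lgr5-positive cells, against 10.71 and 10.76 in Lgr5-negative cells (−1.48 ± 0.14, adjusted p = 0.00123), although its other probe set differed by only −0.18. Thymidylate synthase (Tyms) had 7.96 and 8.05 in Lgr5-positive cells, against 9.58 and 9.68 in Lgr5-negative cells (−1.62 ± 0.14, adjusted p = 0.000994), and the mean of its probe sets differed by −0.38. The sliding clamp Pcna stood at 10.99 and 10.63 in Lgr5-positive cells, against 11.08 and 11.12 in Lgr5-negative cells (−0.29 ± 0.18, not passed). Lower mitosis and replication genes numbered 10 and 7 without the Lgr5-negative array of mouse 2, and 20 and 11 without that of mouse 1. Cdca8 did not pass without the Lgr5-negative array of mouse 2.

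Promoter windows of the mitosis genes Cdca8 (chr4:124936888-124937167, minus strand) and Ccnb2 (chr9:70421525-70421804, minus strand) and of the replication gene Mcm5 (chr8:75109259-75109538, plus strand) are shown because the members of these lists differed together and many hold the same short motifs. In Cdca8 and Ccnb2, capitals mark the cell cycle genes homology region (TTTGAA or TTCGAA), a site of the DREAM complex that represses mitotic genes in resting cells, and the CCAAT box (CCAAT), the site of NF-Y. In Mcm5, capitals mark the E2F motif TTTNNCGC and the CCAAT box. All were searched on both strands, and neighbouring matches can overlap.
Cdca8: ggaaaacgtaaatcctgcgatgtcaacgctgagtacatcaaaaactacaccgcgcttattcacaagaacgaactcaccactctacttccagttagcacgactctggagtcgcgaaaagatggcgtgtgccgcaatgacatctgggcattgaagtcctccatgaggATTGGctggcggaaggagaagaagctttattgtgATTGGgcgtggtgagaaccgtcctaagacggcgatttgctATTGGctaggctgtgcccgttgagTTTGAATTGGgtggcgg
Ccnb2: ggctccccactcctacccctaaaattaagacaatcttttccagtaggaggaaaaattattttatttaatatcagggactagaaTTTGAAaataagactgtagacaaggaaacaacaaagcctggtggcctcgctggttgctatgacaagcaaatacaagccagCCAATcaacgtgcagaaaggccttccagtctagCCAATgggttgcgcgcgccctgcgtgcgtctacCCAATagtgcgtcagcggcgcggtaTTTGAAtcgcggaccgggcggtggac
Mcm5: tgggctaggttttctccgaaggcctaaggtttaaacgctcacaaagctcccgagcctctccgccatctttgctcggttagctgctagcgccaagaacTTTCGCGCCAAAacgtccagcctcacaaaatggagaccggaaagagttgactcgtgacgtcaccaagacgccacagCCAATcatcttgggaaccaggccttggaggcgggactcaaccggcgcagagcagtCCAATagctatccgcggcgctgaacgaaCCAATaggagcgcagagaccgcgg
The homology region was found in 22 of 30 mitosis windows (73.3%), against 18.7% of the windows of all genes, and the CCAAT box in 24 of 30 (80%), against 36.6%. The E2F motif was found in 9 of 26 replication windows (34.6%), against 4.94%. These shares describe lists of genes long known to hold such sites and were counted whether or not a member differed.

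Of 20 inhibitors of cyclin-dependent kinases and quiescence genes 9 were higher and 0 lower, with a median of 0.35. Cdkn2b, which encodes the inhibitor p15, had 8.51 and 8.82 in Lgr5-positive cells, against 6.57 and 7.27 in Lgr5-negative cells (1.75 ± 0.26, adjusted p = 0.00556). Klf9, a transcription factor that opposes keratinocyte proliferation, had 11.52 and 11.61 in Lgr5-positive cells, against 10.17 and 9.85 in Lgr5-negative cells (1.55 ± 0.14, adjusted p = 0.00104), and Txnip, a brake on glucose uptake, differed by 1.45 ± 0.25. The p27 gene Cdkn1b stood at 10.85 and 10.46 in Lgr5-positive cells, against 10.40 and 10.24 in Lgr5-negative cells (0.34 ± 0.17, not passed). Of 10 G1 regulators 1 was higher and 3 were lower (median −0.16). Cyclin D1 (Ccnd1) was the higher one (0.70 ± 0.17), and cyclin D2 (Ccnd2, −1.06 ± 0.21) and the transcription factor E2f2 (−1.47 ± 0.20) were lower. The inhibitor list had 5 higher members without the Lgr5-negative array of mouse 2. The G1 list had 0 higher members without any 1 of the 4 untreated arrays, and 1 lower without the Lgr5-negative array of mouse 1. Txnip did not pass without either Lgr5-negative array, Ccnd1 without any 1 of the 4 untreated arrays, and Ccnd2 without the Lgr5-negative array of mouse 1 or the Lgr5-positive array of mouse 1.

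Many genes of energy metabolism were lower, most by small steps. Of 25 glycolysis and hypoxia genes 16 were lower and 2 higher (median −0.69), and of 32 respiratory chain subunits 14 were lower and 0 higher (median −0.61), with all 32 differences below 0. The glycolytic enzyme Pfkl had 8.82 and 9.26 in Lgr5-positive cells, against 10.67 and 10.65 in Lgr5-negative cells (−1.62 ± 0.17, adjusted p = 0.00178). Egln3, a hydroxylase that hypoxia induces, had 5.87 and 8.15 in Lgr5-positive cells, against 10.13 and 10.24 in Lgr5-negative cells (−3.17 ± 0.61), with its Lgr5-positive arrays wide apart. The complex I subunit Ndufa9 had 9.52 and 9.88 in Lgr5-positive cells, against 10.57 and 10.67 in Lgr5-negative cells (−0.92 ± 0.16). The medians of the 2 lists were −0.74 and −0.78 in mouse 1, and −0.47 and −0.45 in mouse 2. These counts moved strongly with single arrays. Lower glycolysis genes numbered 3 and 4 without the Lgr5-negative array of mouse 1 and of mouse 2, and 8 without the Lgr5-positive array of mouse 1, and higher ones 0 without any 1 of the 4 untreated arrays. Lower respiratory chain genes numbered 3, 1 and 7 in these fits and 22 without the Lgr5-positive array of mouse 2. Leaving out either vismodegib Lgr5-positive array also moved both counts. Egln3 did not pass without either Lgr5-negative array, and Ndufa9 without the Lgr5-negative array of mouse 2.

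Genes of ribosome biogenesis and of lipid synthesis were lower in part. Of 27 ribosome biogenesis genes and Myc targets 8 were lower and 1, Mycn, was higher (median −0.33). Ornithine decarboxylase (Odc1), the first enzyme of polyamine synthesis and a Myc target, had 7.99 and 8.17 in Lgr5-positive cells, against 9.21 and 9.10 in Lgr5-negative cells (−1.08 ± 0.14, adjusted p = 0.00298), and Heatr1, a factor of ribosomal RNA processing, differed by −0.97 ± 0.11. Of 21 cholesterol and fatty acid genes 5 were lower and 0 higher (median −0.27). Squalene epoxidase (Sqle), an enzyme of sterol synthesis, had 8.52 and 8.19 in Lgr5-positive cells, against 9.40 and 9.36 in Lgr5-negative cells (−1.02 ± 0.14, adjusted p = 0.00380). The first list had 5 lower members without the Lgr5-negative array of mouse 1 and 2 without that of mouse 2, and 2 higher without the Lgr5-positive array of mouse 1. The second had 1 lower without the Lgr5-negative array of mouse 2 and 1 higher without the Lgr5-positive array of mouse 1. 

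Many matrix genes were higher. Of 33 collagen and basement membrane genes 18 were higher and 0 lower, with a median of 0.70. Beside Fras1 and Col5a2, they included the collagen Col6a1, at 7.02 and 6.41 in Lgr5-positive cells, against 4.56 and 4.68 in Lgr5-negative cells (2.09 ± 0.20, adjusted p = 0.00126), nephronectin (Npnt), a basement membrane protein that bulge cells lay down as an anchor for the arrector muscle, at 10.93 and 11.14 in Lgr5-positive cells, against 9.02 and 9.11 in Lgr5-negative cells (1.97 ± 0.27, adjusted p = 0.00397), and the laminin chain Lamb1 (1.69 ± 0.18). Npnt was abundant in both populations, whereas Col6a1 was in the dim range in Lgr5-negative cells, so the size of its difference is uncertain. Of 19 matricellular proteins 7 were higher and 1, Tnc, was lower (median 0.46), with biglycan (Bgn), a small matrix proteoglycan, higher at 10.56 and 10.41 in Lgr5-positive cells, against 8.58 and 8.41 in Lgr5-negative cells (1.99 ± 0.18, adjusted p = 0.00104). Higher members of these lists numbered 10 and 3 without the Lgr5-negative array of mouse 1, and 7 and 2 without that of mouse 2. 

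Integrins, the receptors for matrix, had counts close to the shares of all genes, and junction genes stood on both sides. Of 15 integrins 2 were higher and 1 lower, against 6.21% and 10.9% of all genes (median 0.11). The lower one was Itgb6, a subunit induced in wounded epithelium that activates TGF-beta, at 7.47 and 7.28 in Lgr5-positive cells, against 8.90 and 8.68 in Lgr5-negative cells (−1.41 ± 0.17, adjusted p = 0.00240). Of 25 cadherin, claudin, connexin and desmosome genes 2 were higher and 7 lower (median −0.33). P-cadherin (Cdh3), a cadherin of hair germ and basal cells, was higher (1.00 ± 0.17), whereas E-cadherin (Cdh1, −0.65 ± 0.11) and T-cadherin (Cdh13, −1.43 ± 0.23) were lower. Of 14 regulators of the epithelial to mesenchymal transition 0 were higher and 4 lower (median −0.04). Beside Ovol1 and Cdh1, which are epithelial genes, vimentin (Vim), an intermediate filament of mesenchymal and myeloid cells, was lower at 6.46 and 6.16 in Lgr5-positive cells, against 7.82 and 8.41 in Lgr5-negative cells (−1.80 ± 0.22, adjusted p = 0.00279). The integrins had 0 higher members without either Lgr5-negative array, and fewer than 2 without either Lgr5-positive array of untreated or vismodegib mice. The junction list had 1 higher member without either Lgr5-negative array, and 3 lower without that of mouse 1 or 2 without that of mouse 2. The transition list had 2 lower without the Lgr5-negative array of mouse 2. Cdh3 did not pass without either Lgr5-negative array, and Cdh1 without the Lgr5-negative array of mouse 2.

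Many epithelial cytokines of the interleukin 1 family were lower. Of 17, 10 were lower and 0 higher, with a median of −1.18. Il1f9, which encodes interleukin 36 gamma, an alarm cytokine of keratinocytes, had 6.69 and 7.16 in Lgr5-positive cells, against 10.37 and 10.96 in Lgr5-negative cells (−3.73 ± 0.54, adjusted p = 0.00500). The receptor antagonist Il1rn had 6.17 and 6.92 in Lgr5-positive cells, against 9.24 and 9.66 in Lgr5-negative cells (−2.90 ± 0.25, adjusted p = 0.000927), and the decoy receptor Il1r2 had 4.96 and 4.72 in Lgr5-positive cells, against 7.32 and 7.20 in Lgr5-negative cells (−2.42 ± 0.13). Both a cytokine and genes that restrain the family thus stood lower. Interleukin 18 (Il18) was lower (−1.89 ± 0.14) and dim in both Lgr5-positive arrays. Of 23 chemokines 1 was higher and 2 were lower (median −0.19). Cxcl12, which draws cells with the receptor Cxcr4, had 9.48 and 9.35 in Lgr5-positive cells, against 7.37 and 7.73 in Lgr5-negative cells (1.87 ± 0.16, adjusted p = 0.000927), and the neutrophil attractant Cxcl2 differed by −1.96 ± 0.36. Of 15 interferon-stimulated genes 1, the transcription factor Irf1, was higher (0.92 ± 0.14) and 0 were lower (median 0.12). Of 11 genes of MHC class I presentation 0 were higher and 2 lower (median 0.01), with 0 lower without either Lgr5-negative array and 1 higher without the Lgr5-positive array of mouse 1. The interleukin list had 5 lower members without the Lgr5-negative array of mouse 2. The chemokines had 1 lower without the Lgr5-negative array of mouse 1, 0 without that of mouse 2 and 2 higher without the Lgr5-positive array of mouse 1. Il1f9 and Cxcl2 did not pass without the Lgr5-negative array of mouse 2.

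Some markers of macrophages, dendritic cells and Langerhans cells, the resident antigen-presenting cells of epidermis, were lower in Lgr5-positive cells. Of 25, 9 were lower and 0 higher, with a median of −0.70. The list averaged between 6.02 and 6.32 in Lgr5-positive arrays, against 7.13 to 7.41 in Lgr5-negative arrays, and its summed linear signal lay between 4651 and 5494, against 8297 to 9793. The protease Ctss, which trims the MHC class II chaperone, had 6.60 and 4.52 in Lgr5-positive cells, against 9.41 and 9.77 in Lgr5-negative cells (−4.03 ± 0.58, adjusted p = 0.00487). The class II chain H2-Aa had 6.59 and 4.61 in Lgr5-positive cells, against 9.40 and 9.61 in Lgr5-negative cells (−3.91 ± 0.73), lysozyme (Lyz2) differed by −2.89 ± 0.38 and the receptor adaptor Tyrobp by −2.86 ± 0.29. The mean of the probe sets of H2-Aa differed by −2.36. In Ctss and H2-Aa the Lgr5-positive array of mouse 1 lay well above that of mouse 2, and the list's median was −0.42 in mouse 1 and −1.16 in mouse 2. Of its defining markers, Itgam and Cd163 were under the filter. The Langerhans marker Cd207 stood at 6.09 and 5.80 in Lgr5-positive cells, against 6.60 and 6.59 in Lgr5-negative cells (−0.65 ± 0.27) and the pan-leukocyte marker Ptprc at 4.70 and 4.33 in Lgr5-positive cells, against 5.39 and 5.84 in Lgr5-negative cells (−1.10 ± 0.39), and neither passed, but with the mouse as a block in the limma fit both did, at adjusted p = 0.0445 for Cd207 and adjusted p = 0.0147 for Ptprc. The part of such cells in the differences of other genes, among them Serpinb2, Vim and the interleukin 1 family, was not tested. H2-Aa did not pass without either Lgr5-negative array.

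Marker lists of other cell types were counted in the same way. Of 13 T cell markers 3 were lower and 0 higher, with a mean level of 5.76 to 5.81 in Lgr5-positive arrays, against 5.93 to 6.09 in Lgr5-negative arrays, and 1 was lower without the Lgr5-negative or the Lgr5-positive array of mouse 2. Of 7 neutrophil and mast cell markers S100a8 and S100a9, which keratinocytes also make, were the 2 that passed. S100a8 did not pass without either Lgr5-negative array, the Lgr5-positive array of mouse 1 or either vismodegib Lgr5-positive array. The list averaged 6.37 and 6.85 in Lgr5-positive arrays, against 7.09 and 7.37 in Lgr5-negative arrays, and 7 others of its markers were under the filter. Of 10 fibroblast and dermal papilla markers 2 were higher and 3 lower, the mean was 6.55 to 6.61 in Lgr5-positive arrays, against 6.75 to 6.83 in Lgr5-negative arrays, and 7 more, Col3a1 and Pdgfra among them, were under the filter. The lower members were Thy1, Vim and Dpp4, and the lowest difference in the list was −2.19. The higher members were Col1a1 (0.88 ± 0.17), a collagen that the matrix list counts too, and Crabp1 (0.58 ± 0.12), a retinoic acid carrier of dermal papilla cells. The summed linear signal of the list was 4120 to 4677 in Lgr5-positive arrays, against 3239 to 3355 in Lgr5-negative arrays. The part of such cells in the matrix genes was not tested. Col1a1 did not pass without either Lgr5-negative array or the Lgr5-positive array of mouse 2, and Crabp1 without either Lgr5-negative array or the Lgr5-positive array of mouse 1. The higher count of that list was 0 without either Lgr5-negative array. Of 14 endothelial, 12 melanocyte and Schwann cell, 8 Merkel cell and 10 muscle, fat and blood markers 0 were higher and 0 lower by limma, also before the adjustment of p-values, with medians of 0.09, −0.04, 0.07 and −0.01.

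**Figure D4:**
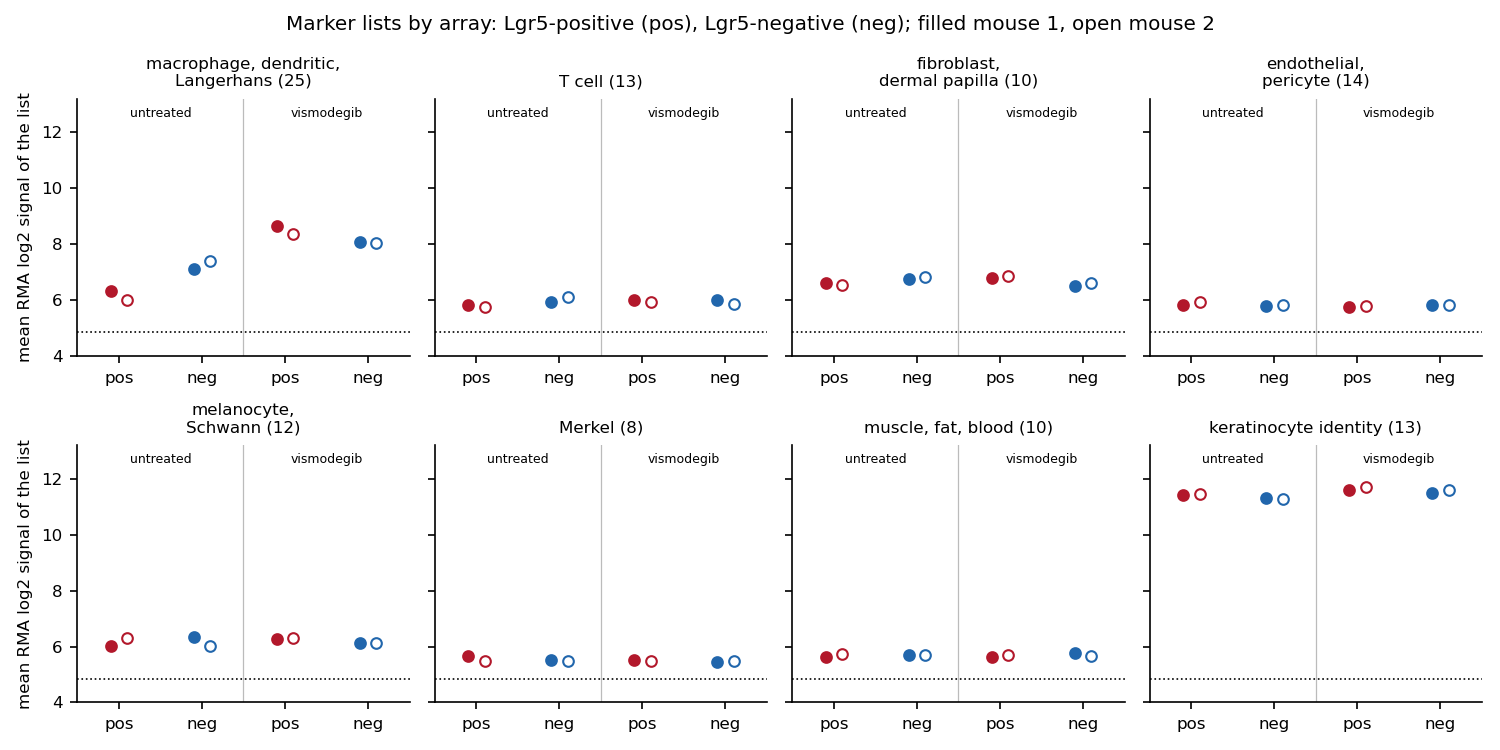
Mean RMA log2 signal (y axis) of the tested markers of 8 cell type lists in each array, with the untreated arrays on the left and the vismodegib arrays on the right of each panel and a dotted line at 4.85; red points are Lgr5-positive and blue points Lgr5-negative arrays, filled for mouse 1 and open for mouse 2. In untreated mice the macrophage list is lower in both Lgr5-positive arrays (6.02 to 6.32, against 7.13 to 7.41), and the keratinocyte list stands at 11.4, against 11.3.

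Genes that passed in untreated mice differed less between the populations of vismodegib mice, and some genes turned round. The 895 genes that were higher in untreated Lgr5-positive cells had a median difference of 0.87 in untreated and of 0.19 in vismodegib mice, and the 1571 lower ones −0.86 and −0.20. Of these genes, 679 and 1225 had the same sign in vismodegib mice. The untreated values chose these genes, so the medians and signs are a description. Across all genes, which are not independent replicates, the differences in untreated and in vismodegib mice had a Pearson r of 0.439. The population difference itself differed between untreated and vismodegib mice in 202 genes (1.4%), of which 59 (0.41%) had the more positive difference in untreated and 143 (0.993%) in vismodegib mice by the limma interaction contrast. These counts moved strongly when single arrays were left out. Such a fit leaves 1 array in a group, which then adds nothing to the estimate of the spread.

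Among these genes, the follicle factor Tbx1 had 6.47 and 7.25 in Lgr5-positive cells, against 7.18 and 7.12 in Lgr5-negative cells after vismodegib, so its difference in untreated mice exceeded that in vismodegib mice by 2.39 ± 0.40 (adjusted p = 0.0413). Cldn10 was dim in most vismodegib arrays, at 4.70 and 4.72 in Lgr5-positive cells, against 4.70 and 4.89 in Lgr5-negative cells, and its untreated difference was greater by 2.47 ± 0.24 (adjusted p = 0.0112). Spry4 (2.03 ± 0.22) and Cxcl12 (1.96 ± 0.23) went the same way. Lyz2 turned round, with 11.02 and 10.93 in Lgr5-positive cells, against 8.39 and 8.45 in Lgr5-negative cells after vismodegib, an untreated minus vismodegib value of −5.44 ± 0.53 (adjusted p = 0.0112). Ctss went the same way (−4.91 ± 0.82), as did 7 macrophage list members in all, and the list's median was −0.70 in untreated and 0.34 in vismodegib mice. For Sprr2d, with 7.003 and 7.45 in Lgr5-positive cells, against 7.63 and 6.51 in Lgr5-negative cells after vismodegib, the untreated minus vismodegib value was −3.55 ± 0.59 (adjusted p = 0.0393), and Robo1 (−3.32 ± 0.30) and Inhba (−3.30 ± 0.41) had values of the same sign. The cell cycle lists kept medians below 0, with values of −1.38 in untreated and −0.82 in vismodegib mice for mitosis and −0.75 and −0.39 for replication. Lgr5 had 9.44 and 10.03 in Lgr5-positive cells, against 5.46 and 4.83 in Lgr5-negative cells after vismodegib (untreated minus vismodegib −2.06 ± 0.35), a difference that the sort sets in both treatments.

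**Figure D5:**
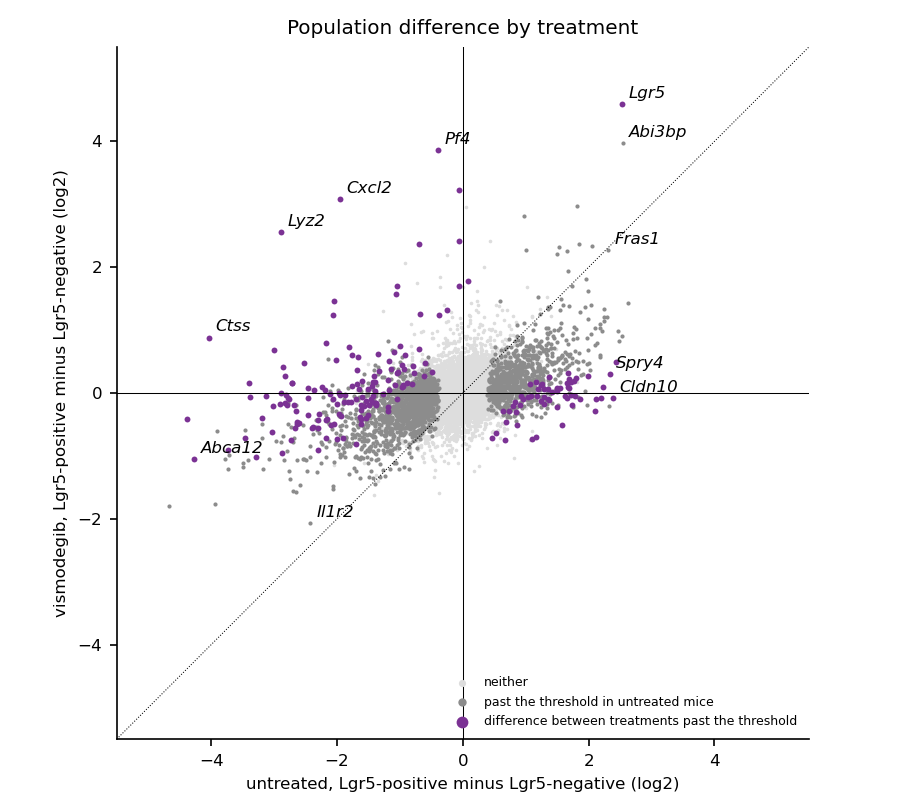
Each point is 1 of 14403 genes, with the Lgr5-positive minus Lgr5-negative log2 difference in untreated mice on the x axis and in vismodegib mice on the y axis; purple points are the 202 genes whose difference itself differed between the treatments. The genes that passed in untreated mice were chosen by their values on the x axis, where their medians are 0.87 and −0.86, against 0.19 and −0.20 on the y axis.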

How the data were processed

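Total RNA of sorted cells was amplified and hybridised to Affymetrix mouse arrays (perfect-match probes only), with an array for each population of each mouse. The deposited values are log2 signals made with RMA, per the submitters' processing notes; the version is not stated. They were used as deposited. Of 45141 probe sets, 28898 had 1 gene symbol, and each of their 17097 genes was represented by its probe set of highest mean across the 8 arrays. The 14403 genes above 4.85 in at least 2 arrays were tested and 2694 set aside. In R 4.3.3, limma 3.58.1 fitted 1 model of 4 group means to the 8 arrays, with 4 residual and 3.53 prior degrees of freedom, and the interaction contrast came from the same fit. The procedure was tested on simulated data. The number of arrays limits the precision. The p-values rest on the spread between the 2 mice of a group, pooled over the 4 groups, and not on the spread of differences within a mouse.

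The arrays of a mouse pair by animal, per the labels. Their deviations from the group means had a correlation of 0.142 across genes in untreated mice, and the random mouse block was estimated at 0.0823. Adding the mouse as a block gave 2652 calls, 2210 of them among the 2466.

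Genes were named by a rule: Lgr5, Lrig1 and Ptch1, the 15 largest increases and decreases that passed, up to 4 members of each list by size and up to 8 interaction genes per direction. Members, lists and rule were chosen with earlier results of these data known. Further named genes, such as Gli1, Gli2, Gli3, Sox9, Mki67, Ccnb2, Krt10, Krt5 and those that did not pass, were chosen after their values were seen. Probe sets of Lrig1, Abi3bp, Cldn10, H2-Aa, Lyz2, Cdca8, Prc1, Tyms, Notch3, S100a8, Gli2 and Krt14 are of a type that can bind related transcripts, so these values are less certain.

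Alternatives were no filter, a filter at the median, every probe set, the mean of probe sets, cyclic loess, an intensity trend, array weights, only the 4 untreated arrays, mouse blocks and leaving out each array.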

Additional observations from a re-analysis of the deposited data

Results flagged for a closer look

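The population difference itself differed between untreated and vismodegib mice in some of the named genes by the limma interaction contrast. Values are untreated minus vismodegib, each a log2 difference of Lgr5-positive minus Lgr5-negative cells, so a negative value means that Lgr5-positive cells stood lower beside Lgr5-negative cells in untreated than in vismodegib mice. The lowest values among the named genes were those of Lyz2 (−5.44), Cxcl2 (−5.03) and Ctss (−4.91), and Tyrobp (−3.28) and Vim (−2.53) were negative too. Among genes of the epidermis, the value was negative for Sprr2d (−3.55), Abca12 (−3.21), Aqp3 (−3.09), Tgm3 (−2.79), Krt16 (−2.42), Elovl4 (−2.12) and Krt10 (−1.46), and among secreted ligands and cytokine genes for Ereg (−1.97), Il1rn (−2.90) and Il18 (−1.75). Matrix, receptor and signalling genes with a negative value were Tnc (−2.99), Robo1 (−3.32), Inhba (−3.30), Sema4d (−1.87) and Tnfrsf19 (−1.42). Enzymes and transporters with a negative value were Nipal1 (−3.98), Car2 (−2.82), Tmprss4 (−2.73), Aldh1a3 (−1.57), Pfkl (−1.42), Tyms (−1.21), Odc1 (−1.21) and Heatr1 (−1.07). A positive value, thus a more positive difference in untreated mice, was found for the follicle genes Tbx1 (2.39), Krt15 (1.73) and Foxc1 (1.49). The other genes with a positive value were Cldn10 (2.47), Spry4 (2.03), Cxcl12 (1.96), Mia (1.93), Lamb1 (1.46) and Jun (1.16). For Lgr5, whose level the sort sets, the value was −2.06. The adjusted p was 0.00951 at its lowest, for Abca12, Tnc, Tgm3 and Ereg, and 0.043 at its highest, for Pfkl. Leaving out single arrays changed how many genes passed over the whole table to between 2 and 251.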

How the results depend on the processing

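Leaving out 1 array moved the counts most. The 2466 calls ranged from 582 to 2852, the 895 higher ones from 216 to 1031, the 1571 lower ones from 366 to 1821, and the 202 interaction calls from 2 to 251. Of the 140 named genes that passed, 94 passed in all 8 of these fits, and the exceptions stand in the text. With every probe set in place of 1 per gene, 1367 probe sets were higher. The other counts over all genes, those with the mouse as a replicate block included (2652 calls with all 8 arrays, 3471 with only the 4 untreated arrays, 2786 with a random block), stayed within 1.5 times. Some counts of list members moved farther in these other settings. Lower glycolysis genes ran from 8 to 17, against 16 in the main fit, and lower respiratory chain genes from 9 to 24, against 14. Among the named genes the block ended none of the 140 calls, made Cd207 and Ptprc pass, and changed no other call with all 8 arrays. Cd207 and Ptprc also passed with only the 4 untreated arrays, and with the block there Lor and S100a1 passed too. Fos passed with cyclic loess and with the intensity trend, and Krt14 with the intensity trend. With all untreated arrays kept, 3 of the 140 ended: Sprr2a1 did not pass with no filter on dim genes, and Defb3 did not pass with array weights, with only the 4 untreated arrays or without either vismodegib Lgr5-positive array. S100a8 did not pass with only the 4 or without either of those vismodegib arrays. Crabp1, Ereg and Il18 were not tested with the filter at the median. No named gene that passed turned its direction. With the mean of probe sets the differences of Boc (0.64), Cdh3 (0.66), Cpne7 (1.58), H2-Aa (−2.36), Inhba (−1.03), Mcm5 (−0.83), Slc1a1 (−1.80), Spry4 (1.31), Them5 (−2.09), Tnc (−1.55), Tyms (−0.38) and Vim (−2.75) moved by over 1.5 times. Cyclic loess brought the median difference to −0.01, and 41.9% of calls were then higher, against 36.3%. With the filter at the median, no Merkel cell marker was left to give a value. The cause of these shifts was not tested, beyond the arrays left out.

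The 2 mice per population, probe sets near background in Lgr5-positive cells for the largest decreases, and a sort without a stated leukocyte exclusion limit what the values show.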

Other observations

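Amino acid transporters changed in both directions, with 7 higher and 2 lower of 18 and a median of 0.32, beside 6.21% and 10.9% of all genes. The carrier of cationic amino acids Slc7a2 had 11.41 and 11.22 in Lgr5-positive cells, against 9.14 and 9.06 in Lgr5-negative cells (2.22 ± 0.28, adjusted p = 0.00309), and Slc43a1, a carrier of branched-chain amino acids, had 7.23 and 7.67 in Lgr5-positive cells, against 5.43 and 5.55 in Lgr5-negative cells (1.97 ± 0.27). The glutamate transporter Slc1a1 had 4.19 and 4.07 in Lgr5-positive cells, against 6.60 and 7.44 in Lgr5-negative cells (−2.89 ± 0.46, adjusted p = 0.00728) and was dim in both Lgr5-positive arrays. The list had 4 higher members without the Lgr5-negative array of mouse 1, and 3 higher and 0 lower without that of mouse 2. Slc1a1 did not pass without the Lgr5-negative array of mouse 2.

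Of 20 genes that bind, make or break down retinoids 3 were higher and 3 lower, with a median of 0.06. The retinaldehyde dehydrogenase Aldh1a3, which makes retinoic acid, had 7.53 and 7.90 in Lgr5-positive cells, against 9.06 and 9.16 in Lgr5-negative cells (−1.40 ± 0.15, adjusted p = 0.00169), and the retinol dehydrogenase Rdh12 was lower as well (−1.25 ± 0.11, adjusted p = 0.000873). Crabp2, which carries retinoic acid to its nuclear receptors, differed by −1.65 ± 0.38. The list had 1 higher member without the Lgr5-negative array of mouse 1, 0 without that of mouse 2 and 1 without the Lgr5-positive array of mouse 2. Crabp2 did not pass without either Lgr5-negative array.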
